A study of Rattus norvegicus with 6 samples.

Results

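The genes of fatty acid uptake and oxidation were followed in neonatal rat ventricular myocytes made to express Tbx18. They were chosen by gene symbol from a list of 39 members. All 39 were found among the 17089 genes of the deposited table, and 37 of them passed the filter on low values, a mean of at least 10 normalized counts over the 6 libraries, along with 11230 genes in all. Echs1 and Ucp3 did not pass. The members were placed at 7 steps, which were uptake, activation, the carnitine shuttle, beta-oxidation, electron transfer, transcriptional regulators, and a mixed group of thioesterases, uncoupling proteins and a lipid droplet protein.

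The series compared ventricular myocytes given Tbx18, a T-box transcription factor active in the embryonic sinus node region, with myocytes given GFP alone. The cells were primary cultures whose donors were Sprague Dawley rats aged 1 to 3 days, transduced when isolated and harvested 4 days after gene transfer. The Tbx18 group was 3 libraries from cultures given Ad-Tbx18-IRES-GFP, an adenovirus that expresses Tbx18 and GFP from 1 transcript, and the GFP group was 3 libraries from cultures given Ad-GFP. Both groups therefore carried an adenovirus and GFP, and both were fed 10% serum for 2 days, which was cut to 2% on day 3. The headers of all 6 columns name the cultures unpace and Control, terms that the labels do not define. The cultures are not a single cell type, and neonatal myocytes under serum are an immature model of heart muscle. The labels do not say whether the 3 libraries of a group came from separate isolations, so every p-value rests on library-to-library spread that may be technical.

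Fatty acids are the main fuel of the adult heart, and use of them rises after birth, when the heart turns away from glycolysis. They enter the cell through membrane transporters, are carried by binding proteins, and are activated to acyl-CoA. The carnitine shuttle moves the acyl group into mitochondria, where beta-oxidation shortens it to acetyl-CoA and passes electrons through electron transfer flavoprotein to the respiratory chain. Nuclear receptors of the PPAR family, which are bound by fatty acids, drive transcription of many of these genes.

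Each Tbx18 library held 17074483 to 19800300 recovered reads, and each GFP library held 17460507 to 18934232. Tbx18 itself was at 5937 to 6236 normalized counts in the Tbx18 libraries and at 268 to 312 in the GFP libraries, so every library matched its label. Of the cardiomyocyte markers, 9 of 10 were tested. Every one of those 9 was detected, 7 were called lower and 0 higher, and their summed level was 407033 to 427385 normalized counts in Tbx18 against 835839 to 922223 in GFP. Their log2 fold changes ran from -2.57 to -0.41, so the fall was not uniform. Myh7 averaged 39582 in Tbx18 and 235206 in GFP. Myh6 averaged 219223 in Tbx18 and 291846 in GFP and, like Myl2, was not called. Of 10 fibroblast markers 9 were called higher, with a summed level of 666283 to 772533 in Tbx18 against 348404 to 409206 in GFP. Of 10 endothelial markers 6 were higher and 1 lower (summed level 2715 to 2869 in Tbx18, 1802 to 2897 in GFP). Of 9 macrophage markers 3 were higher and 0 lower (1632 to 2252 in Tbx18, 1257 to 2320 in GFP); this count was 0 without Tbx18 library 3, 1 without Tbx18 library 2 or GFP library 3, and 5 without GFP library 2. Of 8 smooth muscle and pericyte markers 5 were higher and 2 lower (163232 to 169695 in Tbx18, 195705 to 210953 in GFP). Without Des, a gene that heart muscle also expresses and that was left out after the values were seen, the sum of the other 7 was 118160 to 129595 in Tbx18 and 75638 to 112927 in GFP. Of 8 adipocyte markers 2 passed the filter and neither was called: Lipe at 67.6 to 76.8 in Tbx18 and 52.1 to 59.3 in GFP, and Cfd at 7.17 to 14.0 in Tbx18 and 11.7 to 17.3 in GFP. The other 6, Adipoq and Plin1 among them, were at 5.52 or less in each library, with Lep at 0 throughout, and the summed level of the 8 was 86.0 to 88.1 in Tbx18 against 63.8 to 76.6 in GFP. Over all 11230 genes tested, the same rule, given below, called 23.5% lower and 22.5% higher, and no marker list was tested as a set. The part of these marker differences in the values below was not tested, and in bulk RNA fewer cells of a type and less RNA per cell cannot be told apart.

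Most of the measured fatty acid genes were lower with Tbx18. Of the 37 members tested, 25 were called lower, 2 higher (Fabp5 and Ucp2) and 10 neither, by limma at a Benjamini-Hochberg adjusted p under 0.05 over all genes tested. Over all 11230 genes the same rule called 46.0%, of which 23.5% of genes tested were lower and 22.5% higher. The median log2 fold change of the members was -0.54, against 0.01 over all genes. All 3 Tbx18 libraries lay below all 3 GFP libraries for 27 members and above them for 2, where 28.6% of all genes tested lay below and 28.6% above. Summed over the 39 members, the normalized counts came to 79425 ± 3000 in Tbx18 and 127729 ± 14478 in GFP (SD, n = 3 each). As a share of each library's total, a measure that does not depend on the size factor, this was 0.437% to 0.468% in Tbx18 and 0.552% to 0.641% in GFP, with no overlap. When libraries were scaled to equal recovered reads the count was 19 lower and 4 higher and the median -0.27, while the median of all genes stood at 0.27 under that scaling and 1351 genes were called lower and 4771 higher.

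**Figure D1:**
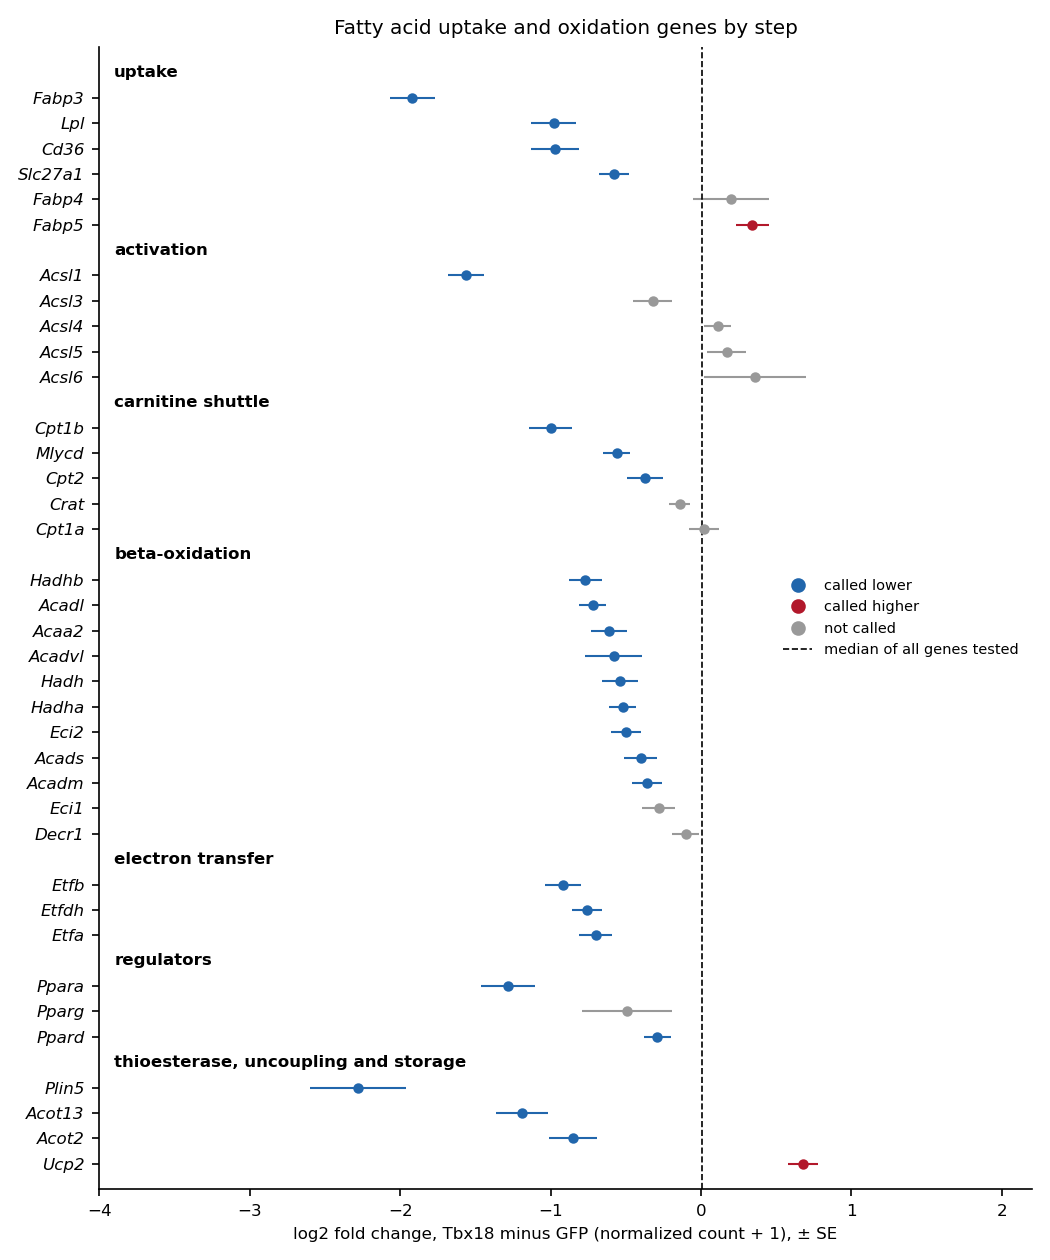
Log2 fold change, Tbx18 minus GFP (x axis, log2 of normalized count + 1), for the 37 tested members grouped by step, with bars for the standard error and colour for the call. Points lie left of the dashed line, the median of all genes tested, at most steps, with Plin5 at -2.28, Fabp3 at -1.92 and Acsl1 at -1.56, while Fabp5 and Ucp2 lie to the right as called genes.

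Members called were counted at each step, where 23.5% of all genes tested were called lower and 22.5% higher. At uptake 4 of 6 were lower and 1 higher (median log2 fold change -0.78), at activation 1 of 5 was lower (median 0.11), and in the carnitine shuttle 3 of 5 were lower (median -0.37). At beta-oxidation 9 of 11 tested members were lower (median -0.52), and at electron transfer 3 of 3 were (median -0.76). Of the regulators 2 of 3 were lower (median -0.49), and of the mixed group 3 of 4 tested were lower and 1 higher (median -1.02). No difference between steps was tested, and each step holds few genes. At beta-oxidation 5 of 11 were lower with equal recovered reads (median -0.26), where 12% of all genes tested were lower. That count was 6 after quantile normalization and without Tbx18 library 3, where 22.9% and 19.1% of all genes were lower. It was 10 without GFP library 1, where 26.3% of all genes were lower. At activation 2 of 5 were lower by DESeq2 and also without GFP library 3. The activation median changed sign with the setting: it was -0.10 with a minimum mean of 50 and -0.22 after quantile normalization.

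Of the uptake members, Cd36, Slc27a1, Lpl and Fabp3 were lower, Fabp5 was higher and Fabp4 was not called. Outside the member list, Slc27a3 and Slc27a4, of the family of Slc27a1, were not lower, as given below. Fabp3, the fatty acid binding protein of heart and skeletal muscle, had 4784, 4704 and 4285 normalized counts in the Tbx18 libraries against 13349, 20776 and 18887 in the GFP libraries. It averaged 4591 ± 268 in Tbx18 and 17671 ± 3860 in GFP, 3.85-fold lower (log2 fold change -1.92, SE 0.15, adjusted p = 1.61e-05). The groups did not come near each other, and most of the spread was in GFP. Cd36, the fatty acid translocase of the cell membrane, had 769, 871 and 606 in Tbx18 against 1286, 1342 and 1779 in GFP, 1.96-fold lower (log2 fold change -0.97, SE 0.16, adjusted p = 8.54e-04). Lpl, the lipase that frees fatty acids from circulating triglyceride, had 2518, 2600 and 2391 in Tbx18 against 4066, 4585 and 6402 in GFP, 2.00-fold lower (adjusted p = 5.63e-04). In both of these genes GFP library 3 was the highest of all. Slc27a1, a fatty acid transport protein also named FATP1, was 1.50-fold lower at 739 ± 17.4 in Tbx18 and 1109 ± 135 in GFP (log2 fold change -0.58, SE 0.10, adjusted p = 0.00148).

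Fabp5, the epidermal binding protein, went the other way. It had 2333, 2656 and 2680 in Tbx18 against 1777, 2329 and 1978 in GFP, 1.26-fold higher (log2 fold change 0.34, SE 0.11, adjusted p = 0.0296). Its lowest Tbx18 library and its highest GFP library differed by a few counts, and the call was lost without GFP library 1, GFP library 3, Tbx18 library 2 or Tbx18 library 3 (adjusted p over all alternatives 8.47e-04 to 0.103). Fabp4, the binding protein of adipocytes and also of capillary endothelium and macrophages, had 77.3, 75.8 and 83.4 in Tbx18 against 77.7, 90.2 and 46.0 in GFP. Its groups overlapped and it was not called (log2 fold change 0.20, SE 0.25, adjusted p = 0.546), with the sign turning to -0.09 without GFP library 3 and -0.16 after quantile normalization.

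**Figure D2:**
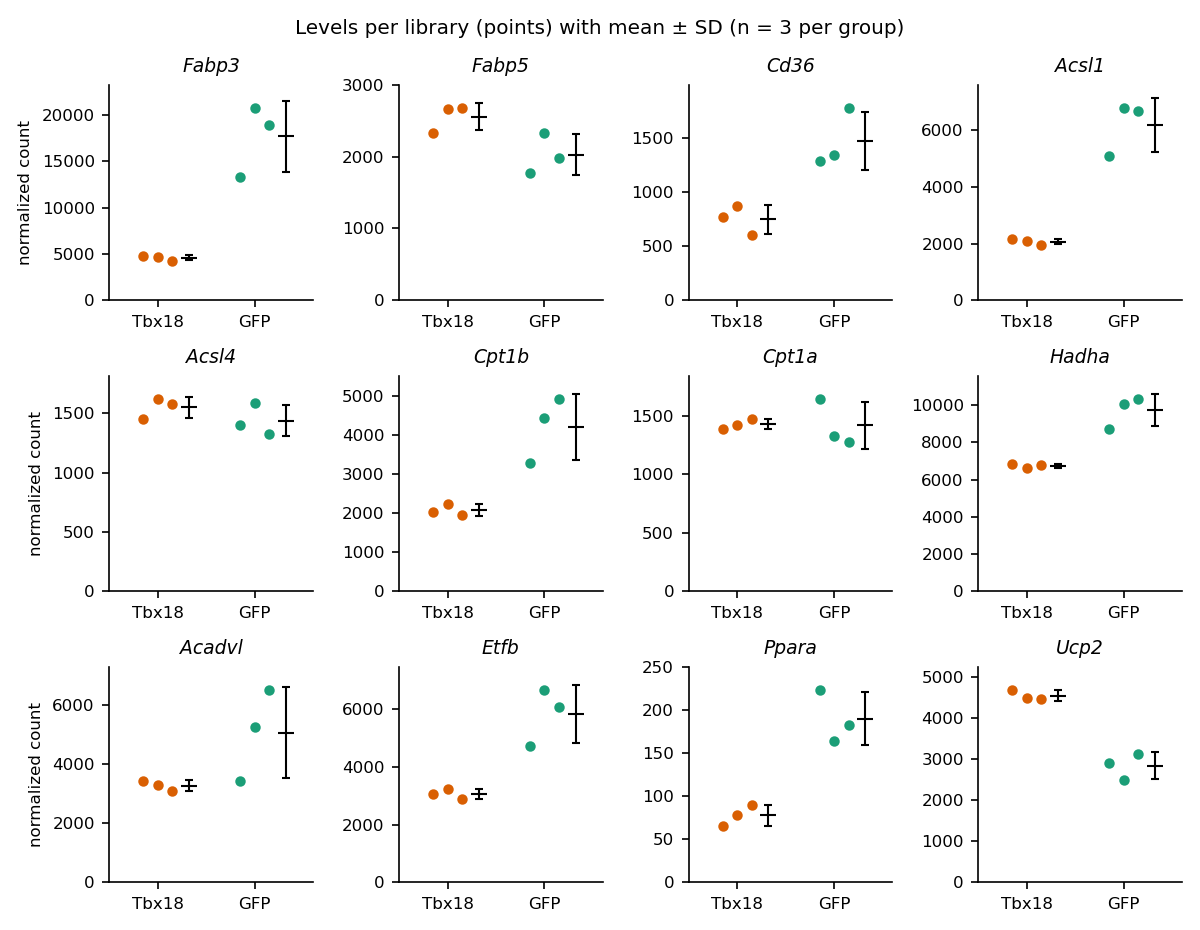
Normalized counts (y axes from 0, one scale per gene) of 12 members in the 3 Tbx18 and 3 GFP libraries, with points for libraries and crosses with bars for mean ± SD (n = 3 per group). Fabp3, Cd36, Acsl1, Cpt1b, Hadha, Etfb and Ppara are lower in every Tbx18 library, Fabp5 and Ucp2 are higher, Acsl4 and Cpt1a overlap, and Acadvl overlaps through GFP library 1 at 3431.

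At activation a single gene, Acsl1, carried the called difference. Long-chain acyl-CoA synthetases attach coenzyme A to the fatty acid, and Acsl1 is the main form of heart muscle. Acsl1 had 2172, 2087 and 1964 normalized counts in Tbx18 against 5072, 6789 and 6685 in GFP, 2.98-fold lower (log2 fold change -1.56, SE 0.12, adjusted p = 1.35e-05). Acsl3, a form found on lipid droplets and the endoplasmic reticulum, had 1239, 1244 and 1306 in Tbx18 against 1908, 1567 and 1309 in GFP. All its Tbx18 libraries lay below GFP, narrowly so against GFP library 3, and it was not called (log2 fold change -0.32, SE 0.13, adjusted p = 0.0628); it was called by DESeq2 (adjusted p = 0.0393) and without GFP library 3 (adjusted p = 0.00905). Acsl4, which favours arachidonic acid, averaged 1551 in Tbx18 and 1437 in GFP (log2 fold change 0.11, SE 0.09, adjusted p = 0.350). Acsl5, a form of mitochondria and endoplasmic reticulum, averaged 2181 ± 115 in Tbx18 and 1969 ± 374 in GFP (log2 fold change 0.17, SE 0.13, adjusted p = 0.331). Acsl6, known best from brain, was low at 19.5 to 33.4 in Tbx18 and 13.6 to 24.2 in GFP, and was not called (log2 fold change 0.36, SE 0.34). The groups overlapped for Acsl4, Acsl5 and Acsl6; with libraries scaled to equal recovered reads Acsl4 and Acsl5 were called higher (log2 fold change 0.38, adjusted p = 0.00575, and 0.43, adjusted p = 0.0257).

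In the carnitine shuttle the muscle form of carnitine palmitoyltransferase 1 was lower, and the form named for liver was not called. Carnitine palmitoyltransferase 1 makes acylcarnitine at the outer mitochondrial membrane, is inhibited by malonyl-CoA, and is regarded as the control point of fatty acid oxidation. Cpt1b had 2047, 2252 and 1964 normalized counts in Tbx18 against 3286, 4438 and 4943 in GFP, 2.02-fold lower (log2 fold change -1.00, SE 0.14, adjusted p = 3.76e-04). Cpt1a had 1390, 1424 and 1475 in Tbx18 against 1646, 1330 and 1280 in GFP, and its 3 Tbx18 libraries lay inside the range of GFP (log2 fold change 0.02, SE 0.10, adjusted p = 0.891). Mlycd, which breaks down malonyl-CoA, had 918, 914 and 841 in Tbx18 against 1244, 1418 and 1282 in GFP and was 1.48-fold lower (adjusted p = 7.77e-04). Cpt2, which returns the acyl group to coenzyme A inside mitochondria, was 1.30-fold lower at 1381 ± 144 in Tbx18 and 1791 ± 247 in GFP (log2 fold change -0.37, SE 0.12, adjusted p = 0.0279). The Cpt2 call was lost under upper-quartile scaling, quantile normalization, equal recovered reads and without GFP library 2, GFP library 3, Tbx18 library 2 or Tbx18 library 3 (adjusted p 0.00507 to 0.451). Crat, which exchanges short acyl groups between coenzyme A and carnitine, averaged 2867 ± 77.8 in Tbx18 and 3155 ± 38.3 in GFP and was not called (log2 fold change -0.14, SE 0.07, adjusted p = 0.144), although its groups did not overlap; with equal recovered reads its sign turned to 0.13.

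Of the beta-oxidation genes, the 4 acyl-CoA dehydrogenases, both trifunctional protein subunits, Hadh, Acaa2 and Eci2 were lower, and Eci1 and Decr1 were not called. The cycle opens with acyl-CoA dehydrogenases, one for each range of chain length. Acadl, for long chains, had 6684, 6532 and 5832 normalized counts in Tbx18 against 10383, 11251 and 9683 in GFP, 1.64-fold lower (log2 fold change -0.72, SE 0.09, adjusted p = 2.36e-04). Acadm, for medium chains, was 1.29-fold lower at 3886 ± 180 in Tbx18 and 5012 ± 606 in GFP (adjusted p = 0.0133). Acads, for short chains, was 1.32-fold lower at 1683 ± 52.6 in Tbx18 and 2230 ± 317 in GFP (adjusted p = 0.0143). The Acadm and Acads calls were both lost after quantile normalization, with equal recovered reads and without Tbx18 library 3 (adjusted p up to 0.360 for Acadm and 0.274 for Acads). Acadvl, for very long chains, had 3443, 3300 and 3078 in Tbx18 against 3431, 5257 and 6522 in GFP, 1.55-fold lower (log2 fold change -0.58, SE 0.19, adjusted p = 0.0314). Its GFP library 1 lay among the Tbx18 libraries, and the call was lost after quantile normalization, with equal recovered reads and without GFP library 2, GFP library 3 or any Tbx18 library (adjusted p 8.02e-05 to 0.162).

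Genes of the later reactions that were tested fell as well. Hadha and Hadhb encode the subunits of the mitochondrial trifunctional protein, which carries out the last 3 reactions of the cycle on long chains. Hadha had 6859, 6645 and 6760 normalized counts in Tbx18 against 8740, 10079 and 10344 in GFP, 1.44-fold lower (log2 fold change -0.52, SE 0.09, adjusted p = 0.00108). Hadhb had 7796, 7928 and 6987 in Tbx18 against 11209, 14290 and 13361 in GFP, 1.71-fold lower (log2 fold change -0.77, SE 0.11, adjusted p = 3.65e-04). Neither gene had overlapping groups. Hadh, the hydroxyacyl-CoA dehydrogenase for shorter chains, was 1.46-fold lower at 832 ± 24.0 in Tbx18 and 1217 ± 195 in GFP (adjusted p = 0.00502; 0.0620 with equal recovered reads). Acaa2, the mitochondrial thiolase, was 1.55-fold lower at 2092 ± 48.9 in Tbx18 and 3232 ± 570 in GFP (adjusted p = 0.00300).

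Of the auxiliary enzymes that make unsaturated fatty acids fit for the cycle, Eci2 was called lower and Eci1 and Decr1 were not called. With the deposited scaling their log2 fold changes were all negative, and no difference between them was tested. Eci2, an enoyl-CoA isomerase, had 1152, 1198 and 1056 normalized counts in Tbx18 against 1433, 1725 and 1660 in GFP and was 1.41-fold lower (log2 fold change -0.50, SE 0.10, adjusted p = 0.00252). Eci1, the other isomerase, had 1372, 1333 and 1167 in Tbx18 against 1390, 1750 and 1557 in GFP; its groups did not overlap, but it was not called (log2 fold change -0.28, SE 0.11, adjusted p = 0.0589), except without GFP library 1 (adjusted p = 0.0118). Decr1, the dienoyl-CoA reductase, averaged 1485 in Tbx18 and 1599 in GFP with overlapping groups (log2 fold change -0.10, SE 0.09, adjusted p = 0.366), and its sign was positive after quantile normalization (0.01) and with equal recovered reads (0.16). Echs1, the enoyl-CoA hydratase, was listed at 3.68, 5.12 and 2.63 in Tbx18 and at 0, 3.70 and 5.75 in GFP, so it could not be compared. Cells that oxidise fatty acids use this enzyme, and how the authors' counting treated its reads was not tested, so the values near 0 are given as listed and not as its expression.

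Hadha and Hadhb lie head to head on rat chromosome 6 and share much of their upstream sequence, which is shown because both genes were called lower. In RefSeq's GRCr8 assembly the 250 bases before the start of Hadhb (chr6:31907501-31907750, minus strand) and those before Hadha (chr6:31907551-31907800, plus strand) have 200 bases in common, in capitals here on the Hadhb strand, 5′ to 3′.
Hadhb: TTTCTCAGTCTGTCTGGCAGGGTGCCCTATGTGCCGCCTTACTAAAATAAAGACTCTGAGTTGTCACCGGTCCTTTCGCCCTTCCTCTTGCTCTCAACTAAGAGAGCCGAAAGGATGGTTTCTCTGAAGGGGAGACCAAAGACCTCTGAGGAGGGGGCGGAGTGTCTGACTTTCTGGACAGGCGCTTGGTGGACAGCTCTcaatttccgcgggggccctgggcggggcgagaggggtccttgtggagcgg

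Genes of electron transfer, which takes electrons from the acyl-CoA dehydrogenases to ubiquinone, were all lower. Etfb had 3056, 3232 and 2885 normalized counts in Tbx18 against 4737, 6676 and 6082 in GFP, 1.91-fold lower (log2 fold change -0.92, SE 0.12, adjusted p = 2.94e-04). Etfa, its partner subunit, had 3182, 3266 and 2905 in Tbx18 against 4404, 5901 and 5015 in GFP, 1.64-fold lower (log2 fold change -0.70, SE 0.11, adjusted p = 7.37e-04). Etfdh, the oxidoreductase of the inner membrane that receives their electrons, had 2978, 3155 and 2739 in Tbx18 against 4440, 5231 and 5361 in GFP, 1.69-fold lower (log2 fold change -0.76, SE 0.10, adjusted p = 2.34e-04). In all 3 genes the highest Tbx18 library lay well below the lowest GFP library, and all 3 calls held in every alternative tried.

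Among the regulators Ppara was the one with the larger fall. Ppara, the receptor that drives fatty acid oxidation genes in heart and liver, had 65.4, 77.9 and 90.4 normalized counts in Tbx18 against 224, 164 and 183 in GFP, 2.45-fold lower (log2 fold change -1.28, SE 0.18, adjusted p = 4.23e-04). Ppard, a more widely expressed receptor of the family, had 1435, 1423 and 1674 in Tbx18 against 1846, 1928 and 1739 in GFP, 1.22-fold lower (log2 fold change -0.29, SE 0.09, adjusted p = 0.0290). The Ppard call was lost under upper-quartile scaling, quantile normalization, equal recovered reads and without GFP library 2, Tbx18 library 1 or Tbx18 library 2 (adjusted p 0.0178 to 0.857). Pparg, the receptor of adipocyte differentiation, was low at 21.5 to 30.4 in Tbx18 and 24.5 to 47.2 in GFP with overlap, and was not called (log2 fold change -0.49, SE 0.30, adjusted p = 0.210) except after quantile normalization (-1.09, adjusted p = 0.0159).

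In the mixed group Plin5, Acot13 and Acot2 were lower, and Ucp2 was higher. Outside the member list, Acot7 was called higher, as given below, and Acot1, Acot3, Acot4, Acot8, Acot9 and Acot11 were not called. Plin5, which coats lipid droplets and ties them to mitochondria in oxidative tissue, had 20.3, 29.7 and 13.2 normalized counts in Tbx18 against 78.7, 93.9 and 138 in GFP. It was 4.92-fold lower (log2 fold change -2.28, SE 0.32, adjusted p = 4.12e-04), the lowest log2 fold change of the 37 members, at a level of few reads. Acot13, a mitochondrial acyl-CoA thioesterase, had 411, 425 and 343 in Tbx18 against 702, 1136 and 904 in GFP, 2.32-fold lower (adjusted p = 3.84e-04). Acot2, a thioesterase of the mitochondrial matrix, had 405, 422 and 389 in Tbx18 against 555, 776 and 906 in GFP, 1.84-fold lower (adjusted p = 0.00218). Acot2 has close paralogs among which reads could have been split, so its level is less certain. Ucp2, an inner membrane carrier found in many cell types, had 4684, 4469 and 4455 in Tbx18 against 2902, 2479 and 3122 in GFP, 1.60-fold higher (log2 fold change 0.68, SE 0.10, adjusted p = 3.81e-04), and this call held in every alternative tried. Ucp3, the muscle form, was listed at 0 in 2 of 3 libraries of each group, at 0.878 in Tbx18 library 3 and at 2.30 in GFP library 3.

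**Figure D3:**
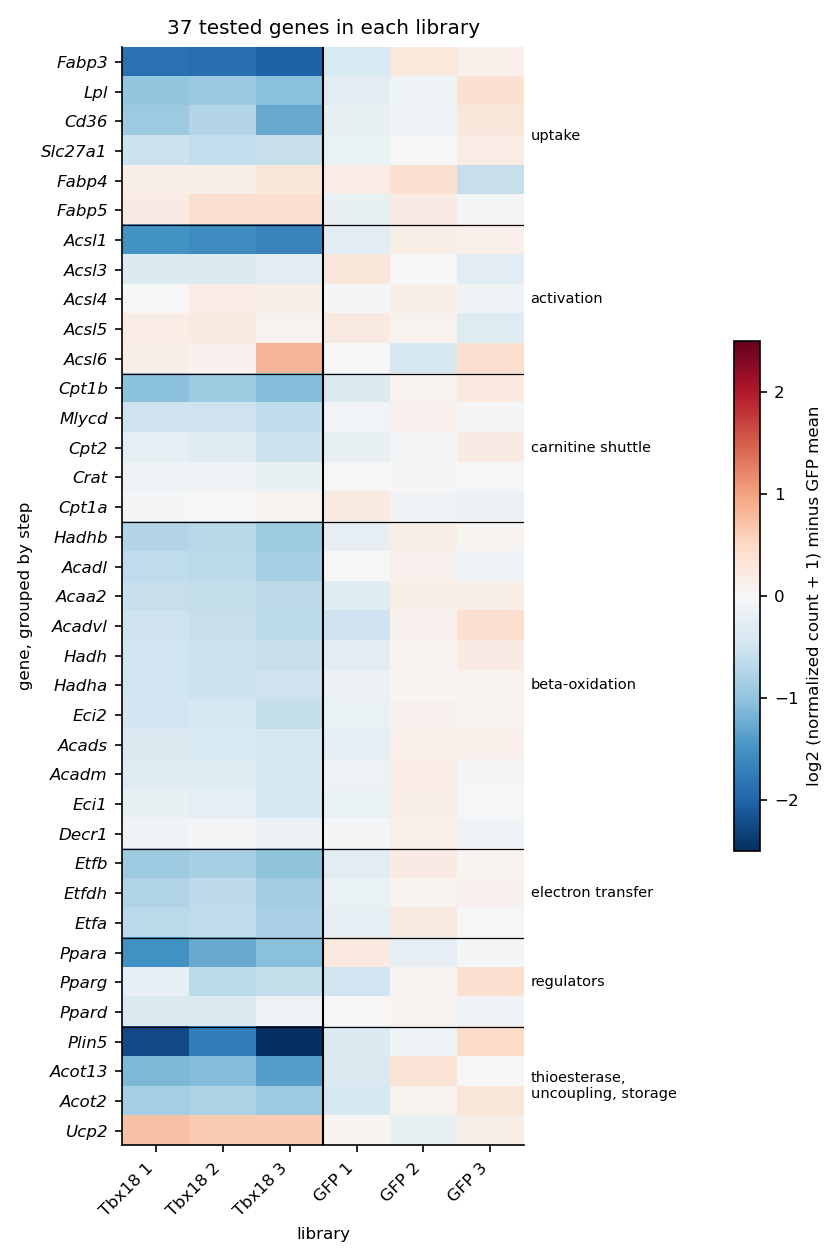
Log2 of normalized count + 1 in each library minus the mean of the 3 GFP libraries, for the 37 tested members (rows, grouped by step) in 3 Tbx18 and 3 GFP libraries (columns), from blue for lower to red for higher. The Tbx18 columns are blue in most rows and much alike, and within GFP library 1 is the lowest of its group for 25 members.

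The members varied more among the GFP libraries than among the Tbx18 libraries. The median SD of their log2 values was 0.08 within Tbx18 and 0.22 within GFP, against 0.10 and 0.17 over all genes tested. GFP library 1 was the lowest of its group for 25 of the 37 members, with a median deviation from the group mean of -0.17, where its median over all genes was -0.01. Tbx18 library 3 was the lowest of its group for 26 members, with a median deviation of -0.08. Without GFP library 1 the members' median log2 fold change was -0.66, and without GFP library 3 it was -0.47.

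Ratios of 2 genes within a library do not depend on its size factor, so forms of the same enzyme or protein family were set against each other. Log2 ratios were compared for 7 pairs by a two-sided exact permutation test, whose smallest p with 3 against 3 libraries is 0.1. Each pair gave that p, which adjusted over the 7 pairs was again 0.1, so no pair could pass 0.05. The ratio of Cpt1b to Cpt1a was 0.56, 0.66 and 0.41 in Tbx18 against 1.00, 1.74 and 1.95 in GFP on the log2 scale, a difference of -1.02 (SE 0.30). For Acsl1 over Acsl3 the mean log2 ratio was 0.71 in Tbx18 and 1.96 in GFP (difference -1.24, SE 0.29), and for Acsl1 over Acsl4 it was 0.42 in Tbx18 and 2.10 in GFP (difference -1.68, SE 0.16). Heart-type Fabp3 moved furthest against the other binding proteins, with a log2 ratio to Fabp5 of 0.85 in Tbx18 and 3.11 in GFP (difference -2.26, SE 0.15) and to Fabp4 of 5.85 in Tbx18 and 7.96 in GFP (difference -2.12, SE 0.38). Ppara over Ppard stood at -4.27 in Tbx18 and -3.27 in GFP (difference -1.00, SE 0.17). The trifunctional protein pair differed least, with Hadha over Hadhb at -0.18, -0.25 and -0.05 in Tbx18 against -0.36, -0.50 and -0.37 in GFP (difference 0.25, SE 0.08). In none of the 7 pairs did the groups overlap, which with 3 against 3 libraries is the same fact as the p of 0.1. The share of other gene pairs without overlap was not computed. Of single genes tested, 28.6% lay wholly below GFP in Tbx18 and 28.6% wholly above. The pairs were built from members whose calls are given above, so the ratios are not separate evidence of a change.

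**Figure D4:**
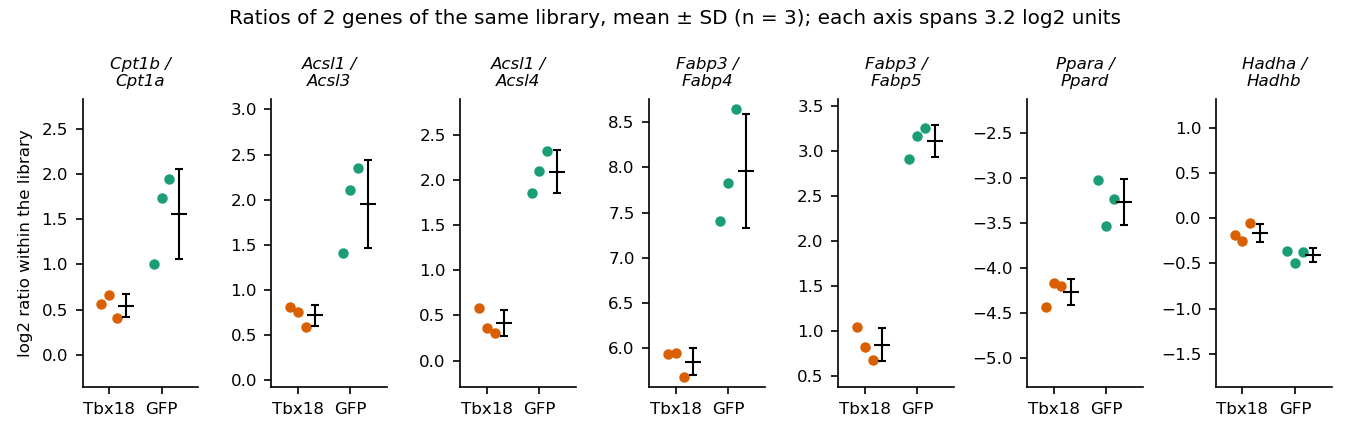
Log2 ratios of 2 genes of the same library (y axes, each spanning the same number of log2 units) for 7 pairs, with points for the 3 Tbx18 and 3 GFP libraries and bars for mean ± SD (n = 3). The ratio is lower in Tbx18 for 6 pairs and higher for Hadha over Hadhb. The groups do not overlap in any pair, the same fact as each pair's permutation p of 0.1, the smallest possible.

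Of 69 other lipid genes listed beside the members, 65 were found and 50 tested. Of those 50, 18 were called lower, 6 higher and 26 neither, where 23.5% of all genes tested were lower and 22.5% higher, and their median log2 fold change was -0.25 against 0.01 over all genes. With equal recovered reads 12 were lower and 11 higher, beside 1351 lower and 4771 higher of all 11230 genes. G0s2, an inhibitor of triglyceride lipase, had 1095, 1368 and 1935 normalized counts in Tbx18 against 5739, 6080 and 3992 in GFP, 3.59-fold lower (log2 fold change -1.86, SE 0.21, adjusted p = 1.17e-04). Pdk4, the kinase that holds back pyruvate oxidation when fatty acids are burned, had 140, 142 and 110 in Tbx18 against 343, 538 and 519 in GFP, 3.57-fold lower (adjusted p = 8.00e-05). These were the genes of this list with the lowest log2 fold changes. Ppargc1b, a coactivator of mitochondrial genes, was 2.33-fold lower at 378 ± 51.7 in Tbx18 and 879 ± 169 in GFP (adjusted p = 1.98e-04), and Acss1, a mitochondrial acetyl-CoA synthetase, was 2.29-fold lower at 32.7 ± 8.02 in Tbx18 and 74.9 ± 11.9 in GFP (adjusted p = 0.00347).

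On the higher side of that list, Cpt1c, the form of carnitine palmitoyltransferase 1 known from brain, had 450, 406 and 473 normalized counts in Tbx18 against 241, 219 and 216 in GFP, 1.96-fold higher (log2 fold change 0.97, SE 0.11, adjusted p = 1.50e-04). Of the Cpt1 genes, Cpt1b was thus called lower, Cpt1c higher and Cpt1a neither, and enzyme activity was not measured. Slc27a3, of the same family as Slc27a1, was 1.89-fold higher at 416 ± 63.9 in Tbx18 and 220 ± 16.0 in GFP (adjusted p = 5.55e-04). Acot7, a cytosolic thioesterase, was 1.46-fold higher at 920 ± 99.3 in Tbx18 and 629 ± 33.9 in GFP (adjusted p = 0.00229). Rxra, the usual partner of PPAR proteins, was 1.54-fold higher at 257 ± 31.0 in Tbx18 and 167 ± 34.5 in GFP (adjusted p = 0.0140, and 0.0651 without Tbx18 library 3). Further genes of transport, the shuttle and its control were chosen after their values were seen. Of these, 3 were not called. Slc22a5, a carnitine transporter, averaged 252 in Tbx18 and 268 in GFP (log2 fold change -0.07). Slc27a4 averaged 1117 in Tbx18 and 1077 in GFP (0.05), and Acaca, of the family of Acacb, 987 in Tbx18 and 786 in GFP (0.36). With equal recovered reads Slc27a4 and Acaca were called higher. Slc25a20, the carrier of acylcarnitine across the inner membrane, was 1.69-fold lower at 1683 ± 118 in Tbx18 and 2841 ± 632 in GFP (adjusted p = 0.00307), and Acacb, which makes malonyl-CoA at mitochondria, was 1.51-fold lower at 912 ± 61.8 in Tbx18 and 1375 ± 306 in GFP (adjusted p = 0.0101; 0.118 with equal recovered reads).

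**Figure D5:**
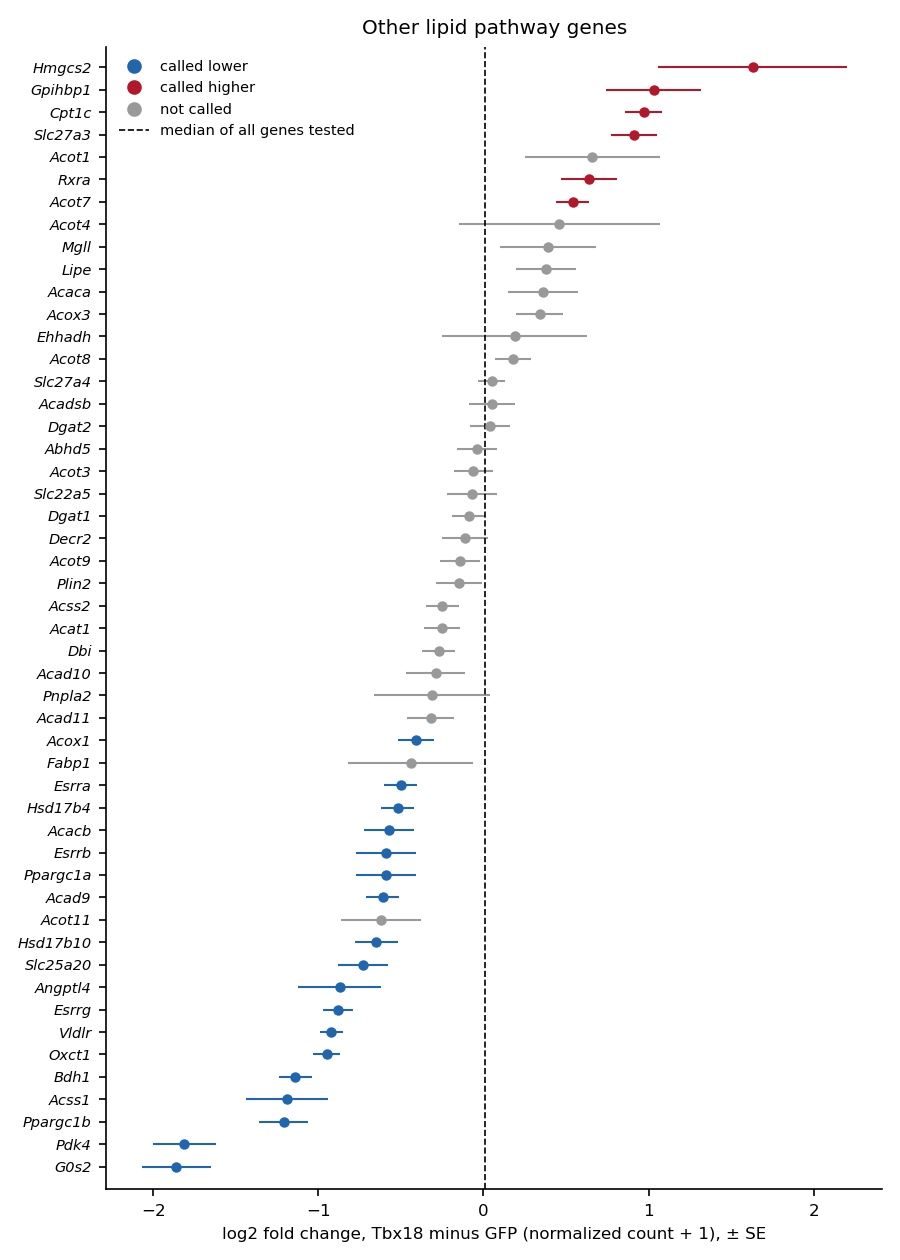
Log2 fold change, Tbx18 minus GFP (x axis, log2 of normalized count + 1), for the 50 tested genes of the other lipid pathway list, with bars for the standard error and colour for the call. G0s2 at -1.86 and Pdk4 at -1.81 are the lowest, and 6 genes, among them Cpt1c at 0.97 and Slc27a3 at 0.91, are called higher.

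Since many members are known targets of PPAR proteins, the upstream sequences were searched for their half-site. RefSeq's promoter table on GRCr8 held 31 of the 39 members, and the 250 bases before each start were read on both strands. The letters AGGTCA, the half-site of PPAR and many other nuclear receptors, occurred in 6 of 31 members (19.4%) and in 14.1% of 33469 windows of the same length. Of these members Slc27a1, Acadvl and Plin5 were called lower, Eci1 was not called, and Echs1 and Ucp3 were not tested. The letters AAGGTCA, the form bound by oestrogen-related receptors and one that contains AGGTCA, occurred in 0 of 31 members and in 3.99% of windows. The letters GGTGTGA, a T-box half-site, occurred in 3 of 31 members (9.68%), which were Acsl5, Eci2 and Pparg, and in 3.22% of windows. Eci2 was called lower, and Acsl5 and Pparg were not called. Each member had 1 window, while the 33469 windows were not reduced to 1 per gene symbol or to genes expressed here, so the shares are over unlike sets. Such a match is a run of letters and not a shown binding site. The windows of 3 called members with AGGTCA are printed with the match in capitals, 5′ to 3′, as Acadvl (chr10:55236706-55236955, minus strand), Plin5 (chr9:1033285-1033534, minus strand) and Slc27a1 (chr16:18312717-18312966, plus strand, where the match is on the opposite strand and reads TGACCT).
Acadvl: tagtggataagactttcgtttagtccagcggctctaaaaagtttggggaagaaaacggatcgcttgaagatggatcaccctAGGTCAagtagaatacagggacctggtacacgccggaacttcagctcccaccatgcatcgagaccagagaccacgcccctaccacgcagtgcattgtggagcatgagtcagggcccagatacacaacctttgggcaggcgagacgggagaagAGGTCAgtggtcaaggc
Plin5: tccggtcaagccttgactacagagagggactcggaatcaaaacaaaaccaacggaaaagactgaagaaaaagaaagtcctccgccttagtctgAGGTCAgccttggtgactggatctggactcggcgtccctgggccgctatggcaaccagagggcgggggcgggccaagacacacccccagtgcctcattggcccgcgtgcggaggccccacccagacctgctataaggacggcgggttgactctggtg
Slc27a1: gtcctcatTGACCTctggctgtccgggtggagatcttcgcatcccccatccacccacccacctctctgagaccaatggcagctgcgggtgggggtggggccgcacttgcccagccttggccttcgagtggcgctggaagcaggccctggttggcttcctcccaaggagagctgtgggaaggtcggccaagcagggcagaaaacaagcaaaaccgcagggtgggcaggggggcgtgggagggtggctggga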

How the data were processed

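The deposited signal is a table of DESeq2-normalized counts, per the name of the deposited table; reads were recovered from it because every value, within a tolerance of 0.01, was a whole multiple of its column's smallest value. Tools listed in the submitters' processing notes, with no role stated, are DESeq2 1.10.1, HTSeq, STAR 2.4.0g1 and bcl2fastq 2.17.1.14; neither genome build, annotation nor strand setting was given in the sources used here. Per the labels' protocols a stranded mRNA kit was used on 100 ng of RNA, with 101 bp paired reads. In RefSeq 13 of the 39 members overlap another gene, among them Fabp3, Acadvl and Ppara, and without the strand setting their reads could include that gene's. Gene length was not used, so levels are not compared between genes.

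Groups were compared with limma 3.58.1 under R 4.3.3 (trended prior variance) after adding a pseudocount of 1 and taking log2, for genes with a mean of at least 10, with Benjamini-Hochberg adjustment over 11230 genes and no block; log2 fold changes of low genes are understated by the pseudocount. Of the 17089 genes, 2912 were at 0 in every library. Folds are ratios of group means. Alternatives used other pseudocounts, filters, scalings, edgeR 4.0.16 and DESeq2 1.42.0 on the recovered reads, a robust prior, a replicate block and leaving out each library. Recovered depth was 17074483 to 19800300 reads per library. The precision given rests on the spread between libraries, which includes counting error, and that error weighs more for genes of few reads.

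All 39 members are named, with the 4 highest and 4 lowest called genes of mean at least 50 from the other lipid list. Any other gene named from that list was chosen after its values were seen. The members, lists and tests were chosen with earlier results of these data known, so list counts are descriptions. A pair of Ucp3 and Ucp2 was planned and left out because Ucp3 did not pass the filter.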

Additional observations from a re-analysis of the deposited data

How the results depend on the processing

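Of the 37 members tested, 20 kept their call and direction in all 17 alternatives, 19 of them lower and 1 higher. A pseudocount of 5, no filter, TMM scaling, edgeR, a robust prior and the replicate block changed no member's call. Under the replicate block 25 members were lower and 2 higher, as without it; same-numbered libraries deviated together with correlations of -0.0047, 0.15 and 0.02, and not every library correlated best with its own number, so the numbers were not taken to pair the samples. Scaling mattered most. With equal recovered reads 4 members and 11 other lipid genes were called higher, and 1351 genes were lower and 4771 higher over the whole table. The members' median log2 fold change was -0.27 with equal recovered reads, -0.46 under upper-quartile scaling and -0.45 after quantile normalization, and -0.66 to -0.47 when each library was left out. With a library left out, 1 to 2 members were called higher. The activation median turned to -0.10 with a minimum mean of 50 and to -0.22 after quantile normalization; the cause was not tested beyond the loss of Acsl6 under the higher minimum. Reversed signs were otherwise confined, in the alternatives run, to 5 members that were not called: Fabp4 (-0.16 after quantile normalization, -0.09 to 0.39 with a library left out), Acsl6 (-0.27 after quantile normalization), Cpt1a (-0.05 to 0.13 with a library left out), Crat (0.05 after quantile normalization, 0.13 with equal recovered reads) and Decr1 (0.01 and 0.16 under the same settings). The cause was not tested.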
